A study of Mus musculus with 4 samples.

Results

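Scgb1a1, Cbr2 and Reg3g are 3 genes of the secretory cells that line the airways, and they were followed here in lungs of A/J mice, 4 of them treated with bleomycin. They were chosen by symbol and for their roles in secretion, carbonyl reduction and antimicrobial defence, and are 3 of 8384 tested genes and of 13410 genes named on the array. Each mouse had its own 2-colour microarray, on which its amplified lung RNA was compared with amplified RNA pooled from the lungs of control mice, the same pool for all. Bleomycin is a DNA-damaging drug used to injure the lung, and A/J is an inbred strain. Treated and control animals share that strain. The sources used here do not give age, sex, dose, route, time after treatment or the number of mice in the pool. Nothing in them says whether the mice were treated on separate occasions.

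Club cells are secretory cells of the bronchioles. They release secretoglobins and other proteins into the airway lining fluid, metabolise inhaled chemicals through enzymes such as cytochromes P450 and carbonyl reductases, and can renew the airway epithelium after injury. Scgb1a1 encodes the secretoglobin known as club cell secretory protein, the best known marker of these cells. Cbr2 encodes a carbonyl reductase that is abundant in the mouse lung. Reg3g encodes a secreted C-type lectin that binds and kills Gram-positive bacteria and is known to be induced in epithelium by interleukin-22 and STAT3 signals.

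Each value is a log ratio between a treated mouse and the pool, centred on the median of its array. Which RNA is on top of the ratio is not stated, so genes are given by their side of 0. With the other RNA on top, all signs would turn while sizes and p-values stayed as they are. The logarithm was read as base 2, which is not stated either, and fold sizes hold only under that reading. The pool counts as 1 control sample, so p-values reflect how the 4 treated mice varied and nothing of how control mice vary. A ratio also gives no level, so whether a gene was abundant in these lungs cannot be read from it. In whole lung, fewer cells of a type and less RNA per cell cannot be told apart.

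The 3 genes did not lie on 1 side of 0. Reg3g was below 0 in every mouse, with a mean of -1.75 ± 0.53 (SD, n = 4), Cbr2 was above 0 in every mouse, with a mean of 1.17 ± 0.70 (SD, n = 4), and Scgb1a1 had 2 mice on each side, with a mean of -0.15 ± 0.69 (SD, n = 4). Reg3g and Cbr2 passed limma's test against 0 with Benjamini-Hochberg adjustment over all genes (adjusted p = 0.0106 and 0.0421), and Scgb1a1 did not (adjusted p = 0.727). Of all 8384 genes, 12.5% passed, 7.69% above and 4.81% below 0.

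**Figure D1:**
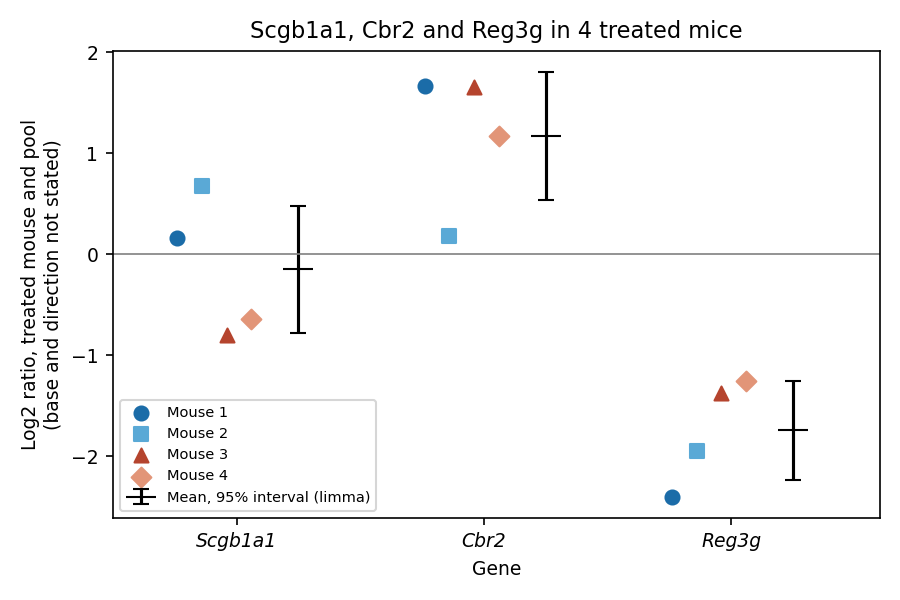
Log2 ratio between each treated mouse and the control pool (vertical axis) for Scgb1a1, Cbr2 and Reg3g (horizontal axis). Each point is 1 mouse, and the horizontal tick with its bar is the mean with its 95% interval from limma. Reg3g lies below 0 in all 4 mice, Cbr2 above 0 in all 4 but near it in mouse 2, and Scgb1a1 on both sides.

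Reg3g and Cbr2, which passed on opposite sides of 0, had a promoter window in the RefSeq table used here (2 of 3 genes matched, by symbol, build GRCm38.p6). They are shown so that the 2 start regions can be set side by side, and the arrays themselves do not bear on them. Each window runs from 250 bases before to 50 bases after the annotated start of the gene, 5′ to 3′ on the gene's strand. Capitals mark matches to TATAAA on either strand.
Reg3g, chr6:78468825-78469124, minus strand: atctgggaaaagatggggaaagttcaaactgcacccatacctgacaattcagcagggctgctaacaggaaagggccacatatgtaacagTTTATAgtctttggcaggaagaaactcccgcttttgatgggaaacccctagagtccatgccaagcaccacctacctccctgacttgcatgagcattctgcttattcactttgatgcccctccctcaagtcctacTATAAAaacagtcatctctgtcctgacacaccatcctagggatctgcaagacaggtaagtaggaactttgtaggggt
Cbr2, chr11:120731972-120732271, minus strand: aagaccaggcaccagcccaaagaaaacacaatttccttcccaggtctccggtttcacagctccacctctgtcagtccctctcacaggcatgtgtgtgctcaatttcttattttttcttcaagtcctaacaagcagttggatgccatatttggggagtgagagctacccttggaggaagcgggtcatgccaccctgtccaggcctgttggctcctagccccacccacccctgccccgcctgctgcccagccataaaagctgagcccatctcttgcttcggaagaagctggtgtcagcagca
The Reg3g window held TATAAA 27 bases before the start and, on the other strand, a match that begins 161 bases before it. The Cbr2 window held no match. Of 32851 promoter windows of this length, 13.6% had TATAAA on at least 1 strand and 8.32% had it on the gene's strand. Neither window held TTCNNNGAA, the letters of a STAT site (8.30% of windows), or TGACNNNGC, the core of the antioxidant response element (12.4%), on either strand, and these motifs do not overlap the TATAAA matches. GC content was 47.3% for Reg3g and 54.7% for Cbr2, beside a median of 52.7% over all windows. Scgb1a1 is named only.

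Scgb1a1 (NCBI gene 22287) is the secretory gene of the 3. Its log ratios in mice 1 to 4 were 0.16, 0.68, -0.80 and -0.64. Mice 1 and 2 were thus above 0 and mice 3 and 4 below it, and mouse 2 and mouse 3 lay 1.48 apart. If the values are log2 ratios, the ratio was 1.60 in mouse 2 and 0.573 in mouse 3. On the array of mouse 2, 95.9% of the genes with a value lay lower than Scgb1a1, while on that of mouse 3 only 3.52% did and on that of mouse 4 only 2.17%. The 95% interval of the mean ran from -0.78 to 0.48, so that a difference of either sign within these bounds could not be told from 0 with 4 mice. The SD between mice exceeded that of 97.4% of tested genes, and the median SD over genes with 4 values was 0.180. The mean was 0.07 without mouse 3 and 0.01 without mouse 4, and it stayed below 0 without mouse 1 or 2 (-0.25 and -0.43).

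Cbr2 (NCBI gene 12409) is the carbonyl reductase of the 3. In mice 1 to 4 the log ratios were 1.67, 0.19, 1.66 and 1.17. Mouse 2 stood closest to 0, and the other 3 mice lay between 2.25-fold and 3.18-fold from the pool. Counted from the highest gene, Cbr2 ranked 14 of 8033 on the array of mouse 1, 40 of 7421 in mouse 3 and 79 of 7689 in mouse 4. In mouse 2 it ranked 1988 of 8066. The mean of 1.17 ± 0.70 (SD, n = 4), a 2.25-fold difference, had a 95% interval from 0.54 to 1.81, and it ranked 52 from the highest of the 8384 genes. The limma call was close to the threshold and was lost without mouse 1 (adjusted p = 0.119), mouse 3 (adjusted p = 0.115) or mouse 4 (adjusted p = 0.114). Without mouse 2 it held, with a mean of 1.50 (limma adjusted p = 0.0201). It was also lost with mice 1 and 2, and mice 3 and 4, taken as pairs in a random block (limma adjusted p = 0.0956). Across 6057 genes, the mice within these pairs correlated at r = 0.723 and r = 0.861. Mice of different pairs correlated at r from 0.436 to 0.560. The labels do not name such pairs.

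Reg3g (NCBI gene 19695) is the antimicrobial gene of the 3. The log ratios of mice 1 to 4 were -2.40, -1.94, -1.38 and -1.26. All 4 mice lay clearly on the same side, and mice 1 and 2 lay farther from 0 than mice 3 and 4. Under the log2 reading the distance from the pool was 5.28-fold in mouse 1 and 2.39-fold in mouse 4. Reg3g ranked 23, 29, 67 and 26 from the lowest gene on the arrays of mice 1 to 4. The mean of -1.75 ± 0.53 (SD, n = 4), a 3.35-fold difference, had a 95% interval from -2.24 to -1.25. Its mean ranked 18 from the lowest of all 8384 genes, and 21 genes lay farther from 0 on either side. The call held whichever mouse was left out, at limma adjusted p from 0.0270 to 0.0318.

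**Figure D2:**
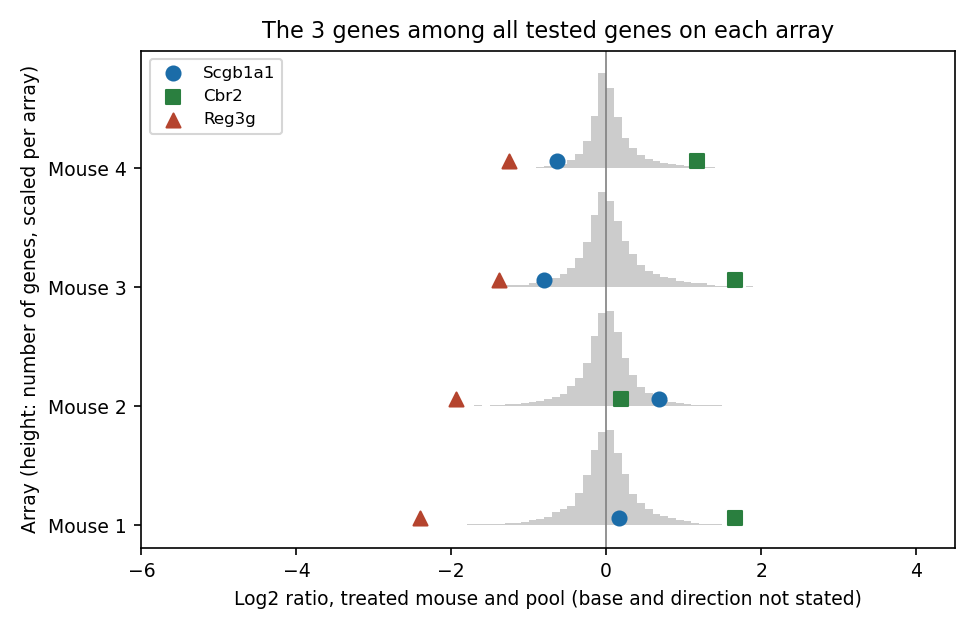
Position of Scgb1a1, Cbr2 and Reg3g among all tested genes on each of the 4 arrays, with the log2 ratio on the horizontal axis and 1 array per row. The grey area is a histogram of all tested genes, its height scaled within each array. Reg3g lies in the low tail in every mouse, Cbr2 in the high tail except in mouse 2, and Scgb1a1 moves from the high side in mouse 2 to the low side in mice 3 and 4.

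Each of the 3 genes was read from 1 spot. Among genes with several probes, the SD between probes of a gene on 1 array had a median of 0.174 over 1918 gene and array pairs, and a 90th percentile of 0.540. That spread is between probes on the same array, while the SDs of the 3 genes are between mice, so they are not set against it.

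Set against each other in the same mice, Reg3g lay below Cbr2 in 4 of 4 mice, by -2.13 in mouse 2 to -4.07 in mouse 1, with a mean difference of -2.92 ± 0.86 (SD, n = 4). Reg3g also lay below Scgb1a1 in 4 of 4 mice, by -2.56 and -2.62 in mice 1 and 2 but only -0.57 and -0.62 in mice 3 and 4. The mean of that difference was -1.60 ± 1.15 (SD, n = 4). Cbr2 lay above Scgb1a1 in mice 1, 3 and 4, by 1.51, 2.46 and 1.81, and below it by -0.49 in mouse 2. An exact two-sided sign-flip permutation test gave p = 0.125, 0.125 and 0.25 for these 3 pairs, or 0.188, 0.188 and 0.25 after Benjamini-Hochberg adjustment over the 3. The smallest p that 4 mice allow is 0.125, so this test could not reach 0.05.

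Of the other secretoglobin genes on the array, Scgb3a1 and Scgb3a2 could be tested. Scgb3a1, a secretoglobin of the larger airways, had log ratios of -0.17, 0.24, -1.32 and -1.05 in mice 1 to 4. Mouse 2 was again the highest and mouse 3 the lowest. Its mean of -0.57 ± 0.73 (SD, n = 4) did not pass limma (adjusted p = 0.203). Scgb3a2, another secretoglobin of club cells, had 0.24, 0.49 and -0.06 in mice 1, 2 and 3 and no value in mouse 4, and did not pass (limma adjusted p = 0.294). Scgb2b20 had a value in mouse 4 only, 0.23, and Scgb1b2 in none.

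Although Scgb1a1 and Scgb3a1 each spanned about as much between mice, their difference within a mouse hardly varied. Scgb1a1 lay above Scgb3a1 by 0.33, 0.44, 0.52 and 0.41 in mice 1 to 4, a mean of 0.42 ± 0.08 (SD, n = 4). Measured by this SD, Scgb3a1 ranked 3 of 6056 genes in how steadily it followed Scgb1a1, after Plpp1 and Klf15, and the median SD over those genes was 0.726. This measure was chosen after the values of both genes were seen. The difference from Scgb3a2 was less steady, at -0.08, 0.19 and -0.75 in mice 1 to 3.

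The other carbonyl reductase genes did not share the place of Cbr2. Cbr1, which encodes the widely expressed cytosolic carbonyl reductase, had log ratios of -0.17, 0.00, -0.03 and 0.12 and a mean of -0.02 ± 0.12 (SD, n = 4). The 95% interval of this mean ran from -0.20 to 0.16, and the values of all 4 mice also lay near 0. Cbr4, a mitochondrial carbonyl reductase, had a mean of 0.13 ± 0.25 (SD, n = 4), with mice 1 and 2 below and mice 3 and 4 above 0. Neither passed limma (adjusted p = 0.886 and 0.449), and Cbr3 had a value in mouse 3 only, 0.18.

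Of the Reg genes besides Reg3g, 2 could be tested. Reg1 had -0.17, -0.13 and -0.07 in mice 1, 2 and 4, and Reg2 had 0.14, -0.16 and -0.15. Both lay near 0 and neither passed limma (adjusted p = 0.345 and 0.746). Without signal levels, a dim spot near 0 cannot be told from an expressed gene that did not differ. Reg3b, Reg3d and Reg4 had 1 value each, -0.07, -0.03 and -0.03, and Reg3a had none. Whether these spots were left empty for low signal is not given, so the Reg3 genes next of kin to Reg3g could not be compared with it.

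**Figure D3:**
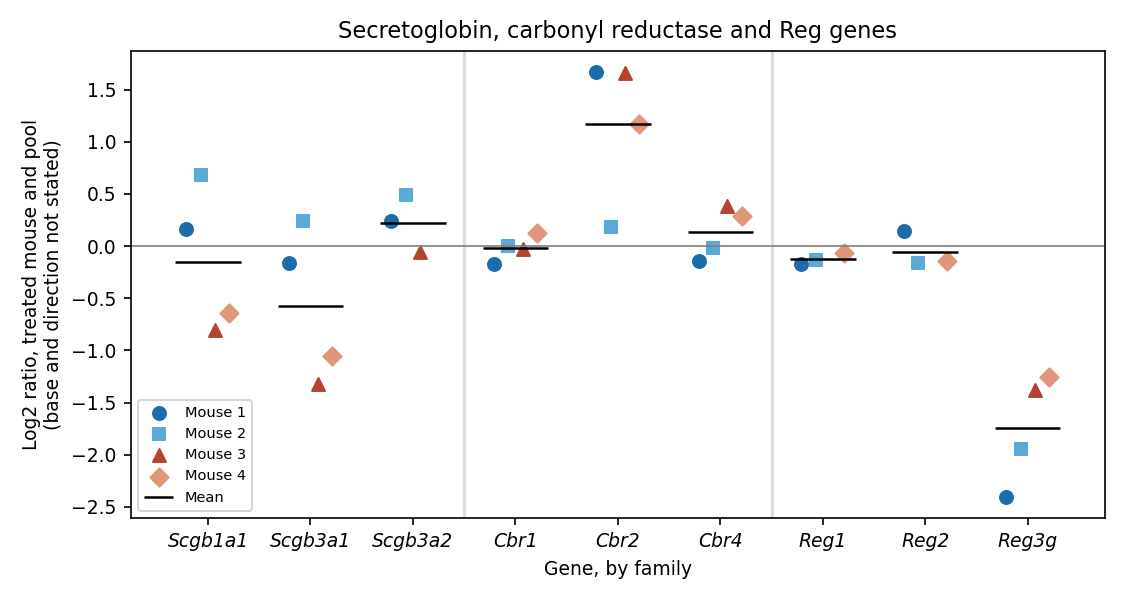
Log2 ratio between each treated mouse and the control pool (vertical axis) for the secretoglobin, carbonyl reductase and Reg genes with at least 3 values (horizontal axis). Points are mice and black lines are means. Scgb1a1 and Scgb3a1 share their order of mice. The means of Cbr2 and Reg3g stand away from those of Cbr1, Cbr4, Reg1 and Reg2, which lie near 0. Reg1 and Reg2 have no value in mouse 3.

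In a wider list of 38 club cell genes, 24 were tested, 3 passed above 0 and 1 below, or 16.7% beside 12.5% of all genes. Without Scgb1a1, Cbr2 and Reg3g, 2 of 21 passed, or 9.52%, and the median was 0.09 beside 0.00 over all genes tested. These 2 were the monooxygenase gene Fmo2, with 1.70, 1.74, 1.94 and 1.86 in mice 1 to 4, and the cytochrome P450 gene Cyp2b10, with 1.09, 0.98, 1.08 and 0.40. Fmo2 thus varied little between mice, unlike Cbr2, and Cyp2b10 was lower in mouse 4 alone. The call of Cyp2b10 did not hold when mouse 1, 2 or 3 was left out (limma adjusted p up to 0.0604). Reg3g was the lowest club cell gene on every array, and Cbr2 was second only to Fmo2 in mice 1, 3 and 4 and ranked 12 of 24 in mouse 2. Scgb1a1 ranked 4 of 24 from the top in mouse 2 and 22 of 24 in mouse 3.

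Other club cell genes, named after their values were seen, varied between mice in more than 1 way. Cyp2f2, the cytochrome P450 that activates naphthalene in club cells, had 0.41 and 0.59 in mice 1 and 2 and -0.12 and -0.20 in mice 3 and 4. It thus had the sign of Scgb1a1 in each mouse, with a mean of 0.17 ± 0.39 (SD, n = 4; limma adjusted p = 0.483). Aldh1a1, a retinal and aldehyde dehydrogenase gene, had 0.75, -0.28, 1.48 and 0.64. Like Cbr2 it was lowest in mouse 2, and it did not pass (limma adjusted p = 0.160). Cyp2f2 and Aldh1a1 thus differed from each other over the 4 mice. Both were picked from these values, so nothing is drawn from them about club cell genes as a set.

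**Figure D4:**
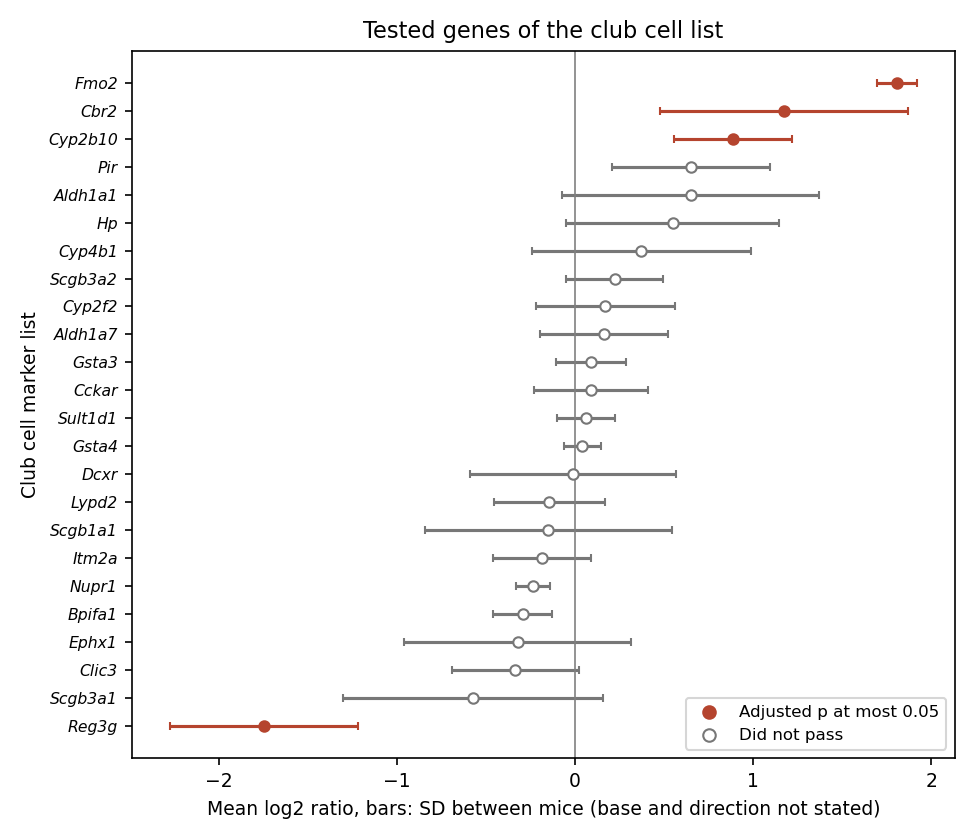
Mean log2 ratio (horizontal axis) of the 24 tested club cell genes (vertical axis, sorted by mean), with bars for the SD between mice. Filled points passed limma at an adjusted p of at most 0.05, and open points did not. Reg3g is the lowest and stands apart, Fmo2 and Cbr2 are the highest, and Scgb1a1 lies among the genes near 0.

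Of 23 genes of airway secretory products, such as secretoglobins, mucins and BPI fold proteins, 16 were tested and 0 passed limma on either side of 0 (3 at an unadjusted p under 0.05), with a median of -0.15. Beside this, 12.5% of all 8384 genes passed and 2664 had an unadjusted p under 0.05 in limma. Mucin 5AC (Muc5ac), a gel-forming mucin of goblet cells, did not pass at -0.46, -0.50, 0.13 and 0.03 in mice 1 to 4. Clca1, a secreted goblet cell protein, ranged from -2.38 in mouse 1 to 0.87 in mouse 3 (limma adjusted p = 0.802). Both were named after their values were seen, and both were higher in mice 3 and 4 than in mice 1 and 2, the reverse of Scgb1a1.

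Of 51 genes of carbonyl reduction and of the reductase families around it, 32 were tested, and 4 passed above 0 and 2 below, or 18.8% beside 12.5% of all genes, with a median of -0.02. Without Cbr2, 16.1% passed. Beside Cbr2, Hpgd, which inactivates prostaglandins, had a mean of 0.79 ± 0.27 (SD, n = 4) and Dhrs1, a short-chain dehydrogenase, of 0.64 ± 0.20 (SD, n = 3). Dhrs7b and Blvrb, the latter a biliverdin and flavin reductase, lay below 0 at -0.50 ± 0.22 and -0.36 ± 0.13 (SD, n = 4). Dhrs3, a retinal reductase, was the remaining gene above 0, at 0.51, and was named after its value was seen. Hpgd was lost without mouse 3 (limma adjusted p = 0.0548) and Dhrs1 without mouse 1 or 3 (up to 0.103). Dhrs1 had no value in mouse 4 and was also lost in the fit without that array (limma adjusted p = 0.0527). Dhrs3, Dhrs7b and Blvrb were lost whichever mouse was left out (limma adjusted p up to 0.116). Cbr2 had the highest mean of the 32.

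Of 40 Reg and other secreted antimicrobial genes, 19 were tested, and 2 passed above 0 and 3 below, or 26.3% beside 12.5% of all genes, with a median of -0.12. Without Reg3g, 22.2% passed. Below 0 with Reg3g were S100a8 and S100a9, whose products form calprotectin, abundant in neutrophils. S100a8 had -1.63, -1.94, -3.02 and -2.52 in mice 1 to 4, so mice 3 and 4 were farthest from 0, whereas for Reg3g mice 1 and 2 were. S100a9 had a mean of -2.08 ± 0.72 (SD, n = 4) and was lost without mouse 4 (limma adjusted p = 0.0502). Above 0 were Sftpa1, a surfactant collectin, at 1.28 ± 0.26 (SD, n = 4), and the ribonuclease gene Rnase4 at 0.86 ± 0.08 (SD, n = 4). The defensin genes Defb1, Defb2 and Defb3, named after their values were seen, did not pass. Defb1 lay below 0 in every mouse, with a mean of -0.32 (limma adjusted p = 0.0808), while Defb2 and Defb3 had means of 0.04 and 0.03.

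Genes of the signals known to induce Reg3g did not pass. Of 33 listed, 14 were tested, 0 passed limma on either side of 0 (4 at an unadjusted p under 0.05), and the median was 0.06. Over all 8384 genes, 12.5% passed and 2664 had an unadjusted p under 0.05 in limma. Interleukin-22 and its receptor Il22ra1 had no named probe. Socs3, a STAT3 target and feedback inhibitor, had -1.23 and -1.13 in mice 1 and 2 and -0.30 and -0.08 in mice 3 and 4. It was thus farther from 0 in the same mice as Reg3g, and did not pass (limma adjusted p = 0.0939). Osmr also lay farther from 0 in mice 1 and 2, at -0.51, -0.91, -0.18 and -0.23 in mice 1 to 4 (limma adjusted p = 0.0788). Lifr, with the smallest p of the list, went the other way, at -0.32, -0.15, -0.60 and -0.38 (limma adjusted p = 0.0524). Il6, a cytokine that acts through STAT3, had -0.70, -1.20, -0.23 and 0.12, and Stat3 itself had a mean of 0.20 ± 0.21 (SD, n = 4); neither passed (limma adjusted p = 0.169 and 0.209). Il1r1 lay above 0 in every mouse, at 0.24, 0.03, 0.43 and 0.20 in mice 1 to 4, and did not pass (limma adjusted p = 0.133). Of the 14 means, 9 lay above 0 and 5 below. Socs3, Osmr, Lifr, Il1r1, Il6 and Stat3 were named after their values were seen, so nothing is drawn from them about the list.

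Of 32 transcription factor and Notch genes of the airway epithelium, 20 were tested, and 3 passed above 0 and 1 below, or 20.0% beside 12.5% of all genes, with a median of -0.02. Klf4, a factor of epithelial differentiation, had a mean of 1.14 ± 0.36, and Foxa1, a forkhead factor that binds the Scgb1a1 promoter, of 0.91 ± 0.49 (SD, n = 4). Sox2, which marks the airway lineage, lay at 0.36 ± 0.16 and Foxp4 at -0.62 ± 0.36 (SD, n = 4). Foxa1 was lowest in mouse 1, at 0.29, and was 1.22, 1.35 and 0.76 in mice 2 to 4, an order that matched none of the 3 airway genes. Foxa1 was lost without mouse 2, 3 or 4 (limma adjusted p up to 0.0930), and Sox2 and Foxp4 whichever mouse was left out (up to 0.137).

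Markers of other cells differed between the mice beside these genes. Of 15 tested striated muscle genes, 7 passed below 0 and 0 above, led by Tnnc2 and Myl1, which is 46.7% of the list beside 4.81% of all genes below 0. The list median was -2.68, -0.81, -2.00 and -1.52 in mice 1 to 4. Of 8 fat cell genes, 4 passed below 0, Cidea, Adipoq, Plin4 and Gpd1, which is 50% of the list beside the same 4.81%, with medians of -0.79, -0.06, -0.81 and -0.55. Mouse 2 was therefore closest to 0 for the medians of both lists, as it was for Cbr2, on the other side of 0. Single muscle genes differed in this. Tnnc2 was farthest from 0 in mouse 2, at -5.505. Tnnt3, named after its values were seen, had -4.515 in mouse 2 and 0.10 in mouse 3, whereas Hrc had -0.84 and -3.24 there. Of 6 neutrophil genes, 2 passed below 0, the calprotectin genes (33.3% beside 4.81%), and the list medians were -0.26, -0.04, -0.45 and -0.51. The 4 fat cell genes were lost without mouse 1, 3 or 4 (limma adjusted p up to 0.132), and Myl1 passed whichever mouse was left out. Tnnc2 had no value in mouse 3 and passed in every fit without 1 mouse. The muscle genes Hrc and Ldb3, which encode a calcium-binding protein and a Z-disc protein, were lost without mouse 3 (limma adjusted p = 0.0596 and 0.0687) or mouse 4 (0.0726 and 0.0655), Hrc also without mouse 1 (0.0787), and both with pairs of mice as a random block (0.0588 and 0.0571). The part of these tissues and cells in the values of Cbr2 and Reg3g was not tested.

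Of the other lung epithelial lists, that of alveolar type I cells had the highest share of calls. Of 9 ciliated cell genes, 1 passed, or 11.1% beside 12.5% of all genes. It was Ak1 at -1.41, an adenylate kinase gene that is also abundant in muscle. Of 7 goblet cell genes, 1 passed (14.3%), the mucin glycosyltransferase gene Gcnt3 at -0.59. Of 8 basal and neuroendocrine genes, 0 passed limma (2 at an unadjusted p under 0.05, beside 2664 of all 8384). Of 13 alveolar type II genes, 1 passed above 0 (7.69% of the list), Sftpa1. Of 13 alveolar type I genes, 4 passed above 0, among them Sema3e at 1.11, Cav1 at 0.91 and Rtkn2 at 1.19, and 1 below, Aqp5 at -0.34, together 38.5% of the list beside 12.5% of all genes. Gcnt3 and Aqp5 were lost whichever mouse was left out (limma adjusted p up to 0.0797 and 0.131), and Rtkn2 without mouse 4 (limma adjusted p = 0.0503).

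The genes nearest to each of the 3 in their 4 values were found by Euclidean distance among 6057 genes with a value on every array, which describes likeness over 4 mice and nothing more. Nearest to Scgb1a1 were Aox1, Idh3g, Gstm3, Trim39 and Pdgfra, at distances from 0.393 to 0.459. None of these 5 passed limma, and Aox1, an aldehyde oxidase gene, had 0.06, 0.32, -0.69 and -0.67. Nearest to Cbr2 were Ager, Gnb2, Anapc5, Anxa5 and Creb3l2, at distances from 0.518 to 0.692. Ager, a receptor gene of alveolar type I cells, had 1.30, 0.15, 2.02 and 1.18 and did not pass limma (adjusted p = 0.0521). Mouse 2 was the closest to 0, as for Cbr2, which follows in part from choosing genes by likeness to Cbr2. Gnb2, Anapc5, Anxa5 and Creb3l2 passed (limma adjusted p up to 0.0425). Gnb2 and Anapc5 were lost without mouse 1, 3 or 4 (limma adjusted p up to 0.128). Nearest to Reg3g were Cox6c, Ccng1, Atp5k, Gadd45g and Ak1, at larger distances from 0.912 to 1.06. Cox6c, the nearest, had -1.81, -1.375, -1.73 and -1.07 in mice 1 to 4. In Cox6c, Atp5k and Ak1, mouse 3 lay farther from 0 than mouse 2, unlike in Reg3g. Ccng1 and Gadd45g lay farther from 0 in mice 1 and 2, as Reg3g did. Gadd45g, a stress-inducible gene described after its values were seen, had -1.97, -1.63, -0.74 and -0.63.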

How the data were processed

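Per the labels, each array set 1 treated mouse against the control pool. The authors' deposited table holds 1 log ratio for each spot and array, taken here as log2; direction, log base, dyes, scanner and normalization are not stated. Of 17280 spots, 9427 to 12136 had a value on an array, and array medians before centring ran from -0.009 to 0.029. Signal is not part of the table, so dim spots could not be judged, and there were 0 other columns of per-sample values.

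Spots were named through the platform annotation (14722 with 1 symbol), with NCBI gene IDs matched to a RefSeq table (GRCm38.p6), which changed 0 symbols. Arrays were centred on their medians and spots of 1 symbol averaged. The 8384 genes with values from 3 or 4 mice were tested against 0 with limma 3.58.1 (R 4.3.3), by an intercept-only lmFit and eBayes. Tests were two-sided, p-values were adjusted by Benjamini-Hochberg, and the threshold was 0.05. The script was tested on simulated data. Nothing in the labels says more of the mice than their numbers, so p-values measure the spread between these 4 samples, which may be technical in part.

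The 3 genes and the gene lists were chosen with earlier results of these data known, and lists are described by counts and medians. By rule, the text names the 3 genes, the other secretoglobin, Cbr and Reg genes, up to 4 genes past the test with the smallest p of each list, and the 5 genes nearest to each of the 3. Dhrs3 was added to these. Further genes were named from their values and are not in the counts of named genes below. Alternatives were no centring, scaled arrays, other minimums of values, the median of probes, single probes, pairs of mice as a random block, robust variance moderation and leaving out each mouse. A trend of the variance on signal was not run, since the table has no signal.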

Additional observations from a re-analysis of the deposited data

Results flagged for a closer look

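Of 45 genes with 4 values that were named by the rules above, Dhrs3 among them, 3 had 1 mouse far from the other 3. This was judged by Dixon's ratio of the gap to the range, which chance takes past its critical value in about 1 of 20 groups. Cyp2b10 was 0.40 in mouse 4 and 0.98 to 1.09 in the other mice. Anapc5, a subunit gene of the anaphase-promoting complex, was 0.22 in mouse 2 and 1.17 to 1.35 in the others. Anxa5, which encodes annexin A5, was 0.61 in mouse 2 and 1.25 to 1.35 in the others. Anapc5 and Anxa5 were named for their likeness to Cbr2, which was itself lowest in mouse 2, so their low value there follows in part from how they were chosen. Scgb1a1, Cbr2 and Reg3g did not meet the rule.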

How the results depend on the processing

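Reg3g kept its side of 0 and its call in 8 of 8 other settings with all 4 mice (means from -1.76 to -1.73, limma adjusted p up to 0.0180) and in 4 of 4 fits without 1 mouse (means from -1.91 to -1.53). Cbr2 passed in 7 of 8 settings (limma adjusted p from 0.0358); with pairs of mice as a random block its mean was 1.17 and it did not pass. Without 1 mouse its mean ran from 1.01 to 1.50. Scgb1a1 passed in 0 of 8 settings (limma adjusted p from 0.684), and without 1 mouse its mean ran from -0.43 to 0.07, on both sides of 0: 0.0677 without mouse 3 and 0.0120 without mouse 4. Over all genes, 402 passed with the block and 296 to 573 without 1 mouse, beside 1048 with all 4; the fits without a mouse have fewer samples, and for the block the cause was not tested. The within-mouse differences kept their direction without 1 mouse: 0.94 to 1.93 for Cbr2 minus Scgb1a1, -1.94 to -1.25 for Reg3g minus Scgb1a1 and -3.18 to -2.53 for Reg3g minus Cbr2.

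Of 39 genes past the test that were named by rule, Dhrs3 among them, 15 passed in every fit without 1 mouse and 24 were lost in at least 1. With the block, 19 were lost. No paired analysis was possible because the mouse numbers belong to 1 group and the control is 1 pool. The number of arrays limits the precision.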
